A study of Mus musculus with 7 samples.

Results

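miR-21 in vesicles of visceral fat is represented by 3 mature miRNAs of the deposited table of 820: mmu-miR-21a-5p, the main product of the Mir21a gene, and its near-identical relatives mmu-miR-21b and mmu-miR-21c, written here without the species prefix. They were taken by name, and all 3 were found. The 7 libraries hold the small RNA of extracellular vesicles, membrane particles that cells release, isolated from the epididymal fat of male mice. The mice were without ApoE, the apolipoprotein that clears lipoproteins from blood. The HFD+Ni group (3 libraries) received a high-fat diet with nicotine at 2 mg/kg/day for 12 weeks, and the HFD group (4 libraries) the high-fat diet alone for the same time. The age of the mice is given as 8 weeks, which is shorter than the 12 weeks of diet. It is therefore not taken here as the age when the fat was collected. The loss of ApoE and the diet are common to both groups, so neither is a contrast here, and no group on ordinary food or with ApoE was analysed here. The labels do not say whether a library is 1 animal, so tests measure the spread between libraries, which may be partly technical. The question of the comparison is which vesicle miRNAs differ under nicotine.

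miRNAs are short RNAs that guide Argonaute proteins to messenger RNAs, mainly through the seed near their 5′ end, and lower the output of those messages. miR-21 is among the best-studied of them: its gene is switched on by inflammatory and growth signals such as STAT3 and AP-1, and among its known targets is Pdcd4, which restrains growth. It is known for high levels in activated macrophages, in fibroblasts of scarring tissue and in many tumours. In fat it is made by fat cells and by stromal and immune cells, and it is also carried in vesicles. Fewer cells or vesicles of 1 source and less miRNA per vesicle cannot be told apart in these libraries.

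The mature sequences, from RefSeq on GRCm38.p6, are printed 5′ to 3′ with the seed (bases 2 to 8) in capitals, because the reads of the relatives turn on how alike they are.
miR-21a-5p: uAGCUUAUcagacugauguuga
miR-21c: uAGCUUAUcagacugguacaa
miR-21b: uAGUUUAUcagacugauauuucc
miR-21a-3p: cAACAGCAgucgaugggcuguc
miR-21a-5p and miR-21c share the seed AGCUUAU, and miR-21b differs from both within it. A mature sequence was found in RefSeq for 696 of the 820 miRNAs, and none of these apart from miR-21a-5p and miR-21c held that seed. Counting positions from 1 at the 5′ end and setting each relative against miR-21a-5p without gaps, miR-21b carries C4U, G18A, G21U and A22C, and 1 further base at its end. miR-21c is identical over the first 15 bases and then carries A16G, G18A, U19C, U20A and G21A, and it is 1 base shorter. Set directly against each other, miR-21b and miR-21c differ at 5 of 21 positions, and their longest common run is uuaucagacug. miR-21a-3p is the opposite arm of the miR-21a hairpin, which is usually degraded, and has another seed.

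The 3 genes lie apart from each other. Mir21a is on chromosome 11 (86584067 to 86584158, minus strand, GRCm38), within exon 12 of Vmp1, an autophagy gene read in the same direction, and in an untranslated part of that exon. Mir21b is on chromosome 3 (29636744 to 29636851, plus strand), in an intron of Egfem1 on the same strand. Mir21c is on chromosome 8 (128278148 to 128278225, minus strand) and overlaps no other gene of GENCODE release M21.

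miR-21a-5p was one of the more abundant vesicle miRNAs, and its mean level was lower in HFD+Ni than in HFD, a difference that did not pass correction for multiple tests. Levels are given as rpm, the reads of a miRNA scaled to 1000000 miRNA reads of its library. It was at 6918, 7203 and 8789 rpm in HFD+Ni replicates 1 to 3, against 8464, 17527, 11536 and 10075 rpm in HFD replicates 1 to 4. The groups overlapped in a single pair of libraries: HFD+Ni replicate 3 lay above HFD replicate 1, and HFD replicate 2 stood highest. Group means were 7637 ± 1008 rpm in HFD+Ni (SD, n = 3) and 11900 ± 3955 rpm in HFD (SD, n = 4), 1.56-fold lower in HFD+Ni. As a share of all miRNA reads, miR-21a-5p took 0.692% to 0.879% in HFD+Ni and 0.846% to 1.75% in HFD.

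**Figure D1:**
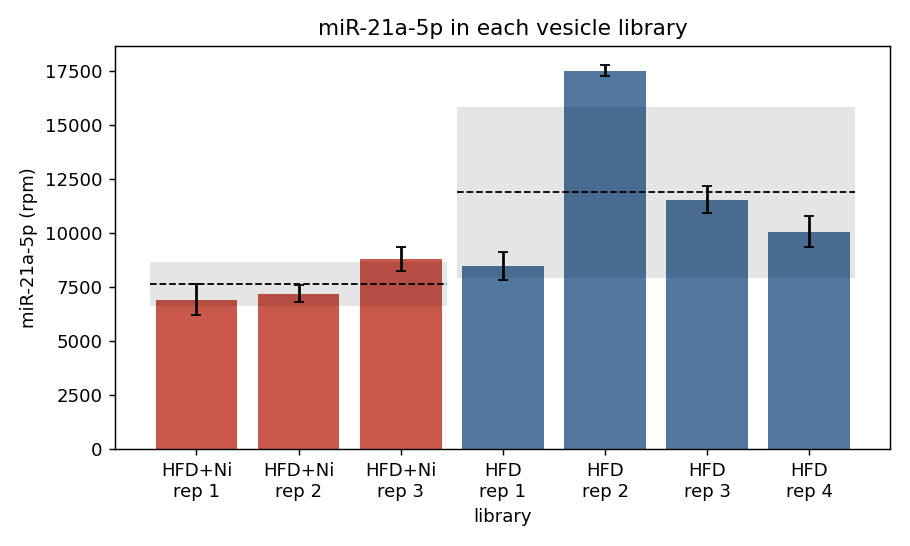
miR-21a-5p in rpm (vertical axis) for each library (horizontal axis), HFD+Ni in red and HFD in blue; error bars are 95% Poisson intervals of the reads, dashed lines the group means and grey bands 1 SD. The 3 HFD+Ni libraries lie between 6918 and 8789 rpm, and HFD replicate 2 at 17527 rpm stands above the other HFD libraries.

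The values rest on 371, 1267 and 946 reads of miR-21a-5p in HFD+Ni and on 684, 18507, 1355 and 776 reads in HFD. Counting error was therefore small: the Poisson coefficient of variation of a library was 2.81% to 5.19% in HFD+Ni and 0.735% to 3.82% in HFD. The spread between libraries was wider in both groups, with a coefficient of variation of 13.2% in HFD+Ni and 33.2% in HFD. For miR-21a-5p the libraries thus differed from each other by more than their counting error. The intervals of levels and shares and the limits of 3 reads given here describe counting error alone. They may be too narrow even for that, because reads copied from 1 molecule by PCR are not separate observations. The intervals of fold changes rest instead on the spread between libraries, moderated by that of the other tested miRNAs.

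The HFD+Ni and HFD groups were compared on log2(rpm + 1) with limma, and the 387 miRNAs that averaged 5 rpm or more were tested. The log2 fold change of miR-21a-5p was -0.59 (SE 0.26), with a 95% interval of -1.16 to -0.03. limma moderates the variance of each miRNA with that of all tested miRNAs. The SE, interval and p therefore do not measure the spread of miR-21a-5p alone. Its unadjusted limma p was 0.0420 and its limma p with Benjamini-Hochberg adjustment 0.830. By unadjusted p it stood at place 7 of the 387, where 2.84% of the tested miRNAs were at unadjusted p under 0.05, 1.29% lower and 1.55% higher in HFD+Ni, and 0% passed at adjusted p under 0.05. A log2 fold change below that of miR-21a-5p was found for 24.8% of the tested miRNAs, and 95 of these 96 were scarcer than it. The authors' deposited table gives a log2 fold change of -0.66 for miR-21a-5p with a p-value of 0.185 and an FDR of 1.

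HFD replicate 2 weighed most on the size of the difference. It was by far the deepest library, with 1055902 miRNA reads against 53626 to 175892 in the other 6, and it also held the highest level of miR-21a-5p. With every library thinned to 53626 reads the log2 fold change was -0.50 (SE 0.26, limma adjusted p = 0.776). The part of depth in the level of HFD replicate 2 was not tested further. Without this library the log2 fold change was -0.39 (SE 0.22, limma adjusted p = 0.897). Without both this library and the shallowest, HFD+Ni replicate 1, it was -0.32 (SE 0.21). The unadjusted limma p was under 0.05 in 3 of the 7 fits that left out 1 library, those without HFD+Ni replicate 3, HFD replicate 1 or HFD replicate 4. It was 0.107 without HFD replicate 2, 0.109 without HFD+Ni replicate 1, 0.0940 without HFD+Ni replicate 2 and 0.0757 without HFD replicate 3. The direction was lower in HFD+Ni in all 7.

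**Figure D2:**
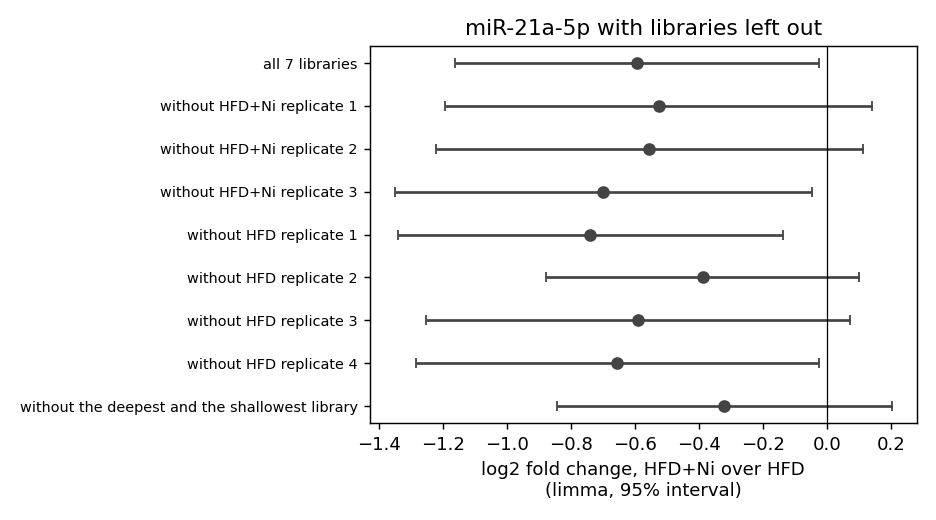
The log2 fold change of miR-21a-5p, HFD+Ni over HFD (horizontal axis), with all 7 libraries and with libraries left out (rows); points are limma estimates and bars 95% intervals. All estimates lie below 0, between -0.74 and -0.32, and 5 of the 9 intervals cross 0.

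By mean level over the 7 libraries miR-21a-5p was at rank 21 of the table, at 10073 rpm. Within single libraries it ranked 25, 23 and 22 in HFD+Ni replicates 1 to 3 and 23, 13, 16 and 20 in HFD replicates 1 to 4. Directly above it stood miR-23a-3p and miR-23b-3p, which are nearly identical and whose reads differed by at most 3.50% in any library, so their values may rest on the same reads. miR-23a-3p was at 12473 ± 6554 rpm in HFD+Ni (SD, n = 3) and 11173 ± 3864 rpm in HFD (SD, n = 4), with a log2 fold change of 0.10 (SE 0.34). Directly below stood miR-26b-5p, at 8728 ± 3036 rpm in HFD+Ni and 10252 ± 2100 rpm in HFD, and miR-103-3p, at 7748 ± 2318 rpm in HFD+Ni and 9500 ± 2710 rpm in HFD. Their log2 fold changes were -0.26 (SE 0.27) and -0.30 (SE 0.27), and none of these 4 neighbours had an unadjusted limma p under 0.05. In both groups the SD of miR-21a-5p exceeded its distance in mean level over the 7 libraries from miR-26b-5p, at 9599 rpm, so the order of these 2 is not resolved.

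miR-21b and miR-21c were at 0 to 3 reads in every library other than HFD replicate 2, and their reads were equal in all 7 libraries. Each had 3, 3 and 1 reads in HFD+Ni replicates 1 to 3, against 0, 39, 3 and 0 reads in HFD replicates 1 to 4. That is 55.9, 17.1 and 9.29 rpm in HFD+Ni and 0, 36.9, 25.5 and 0 rpm in HFD. The mature sequences of the pair differ at 5 positions, all of them outside the run uuaucagacug. Whether the same reads were counted for both was not tested, so reads cannot be assigned to either and both values are uncertain.

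The level of the pair could not be compared between groups at this depth. The mean was 27.43 ± 24.99 rpm in HFD+Ni (SD, n = 3) and 15.6 ± 18.6 rpm in HFD (SD, n = 4), for miR-21b as for miR-21c. The log2 fold change was 1.96 (SE 1.82; 95% interval -2.02 to 5.94; limma adjusted p = 0.830). That value depends on how the 2 HFD libraries without a read are handled: it was 1.00 with a pseudocount of 5 and 0.31 with edgeR on the reads. Where no read was found, up to 3 reads remain possible, equal to 37.1 rpm in HFD replicate 1 and 39.0 rpm in HFD replicate 4, both above the level in HFD+Ni replicates 2 and 3. With reads pooled by group the order was the opposite, 7 of 337149 reads in HFD+Ni (20.8 rpm, 95% Poisson interval 8.35 to 42.8) and 42 of 1331199 in HFD (31.6 rpm, 22.7 to 42.6), where 39 of the 42 are from HFD replicate 2. The authors' deposited table gives a log2 fold change of 0.30 for each, with p-values of 0.714 and 0.715.

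Beside miR-21a-5p, miR-21b was a trace in every library. It made up 0.802%, 0.236% and 0.106% of the reads of both in HFD+Ni replicates 1 to 3, and 0.210% in HFD replicate 2 and 0.221% in HFD replicate 3. HFD replicates 1 and 4 had 0 of 684 and 0 of 776, which allows up to 0.439% and 0.387% by the limit of 3 reads, and 0.558% and 0.493% by the upper end of the 95% Wilson interval. The 95% Wilson interval of the deepest library, 0.154% to 0.287%, overlaps those of all other libraries, though only narrowly that of HFD+Ni replicate 1, which starts at 0.273%. A difference in this share was not tested.

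**Figure D3:**
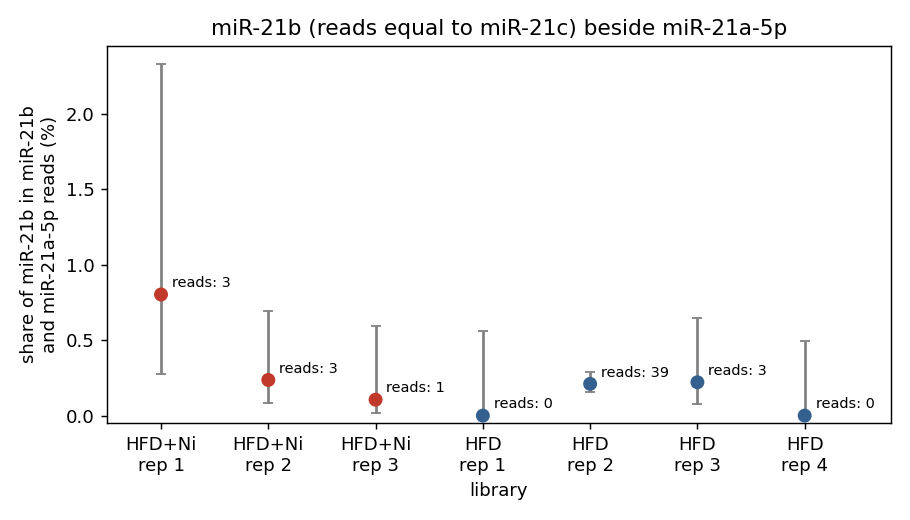
The share of miR-21b in the reads of miR-21b and miR-21a-5p, in percent (vertical axis), for each library (horizontal axis), HFD+Ni in red and HFD in blue; bars are 95% Wilson intervals and labels give the reads of miR-21b, which equal those of miR-21c. The intervals of all libraries overlap that of HFD replicate 2, the narrowest, around 0.210%.

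Since the relatives add so little, the 3 members summed followed miR-21a-5p. The sum was 7692 ± 972 rpm in HFD+Ni (SD, n = 3) and 11932 ± 3989 rpm in HFD (SD, n = 4). The difference was not significant in an exact two-sided permutation test over all 35 assignments of the 7 libraries to groups of 3 and 4 (p = 0.114), where the smallest p that the design allows is 0.0571.

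The opposite arm was almost unread. miR-21a-3p had 0 reads in all 3 HFD+Ni libraries and in HFD replicates 1, 3 and 4, and 7 reads in HFD replicate 2, or 6.63 rpm. In that library there were 2644 reads of miR-21a-5p for each read of miR-21a-3p, a share of 0.0378% of the miR-21a-5p reads. The other libraries, with no read of it, leave room for a share of up to 0.221% to 0.809%, above the share in HFD replicate 2. Use of the 2 arms could thus not be compared between HFD+Ni and HFD, and no fold change is given.

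The miRNAs whose levels moved most like miR-21a-5p over the 7 libraries were sought among the 155 others that averaged 100 rpm or more, by the root mean square difference of log2(rpm + 1) after centring each on its mean. The nearest was miR-361-3p at 0.33, followed by miR-26b-5p and miR-26a-5p, which share a seed, at 0.34 each, and miR-107-3p and miR-103-3p, which differ by a single base, at 0.35 each. The median over all 155 was 0.63, and the same measure of the miR-21a-5p pattern against a flat line was 0.43, so these distances are only moderately smaller than that of no pattern. miR-103-3p and miR-107-3p differed by at most 0.110% in reads in any library, and count as 1 pattern. Their mature sequences are shown to let their seeds be set beside AGCUUAU, which none of them holds.
miR-361-3p: uCCCCCAGgugugauucugauuugu
miR-26b-5p: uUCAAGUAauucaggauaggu
miR-26a-5p: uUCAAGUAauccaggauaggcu
miR-107-3p: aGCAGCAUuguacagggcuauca
miR-103-3p: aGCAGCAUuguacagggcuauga

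The libraries in which they resembled miR-21a-5p differed. miR-361-3p was at 131, 114 and 92.9 rpm in HFD+Ni and 136, 168, 162 and 156 rpm in HFD, so that HFD+Ni lay wholly below HFD, as held for 2.33% of the tested miRNAs, 5.17% having no overlap in either direction. miR-26b-5p was at 6788, 7169 and 12227 rpm in HFD+Ni and 7300, 10995, 10480 and 12230 rpm in HFD, low in the same HFD library as miR-21a-5p, replicate 1. miR-103-3p was at 5893, 10347 and 7005 rpm in HFD+Ni and 9107, 13445, 7747 and 7699 rpm in HFD, highest in HFD replicate 2 as was miR-21a-5p. None of the 5 had an unadjusted limma p under 0.05. The log2 fold changes lay between -0.47 for miR-361-3p and -0.21 for miR-26a-5p. All 5 were chosen for likeness to miR-21a-5p over these same libraries, which favours its direction. Their signs and the lack of overlap of miR-361-3p are therefore not separate results.

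**Figure D4:**
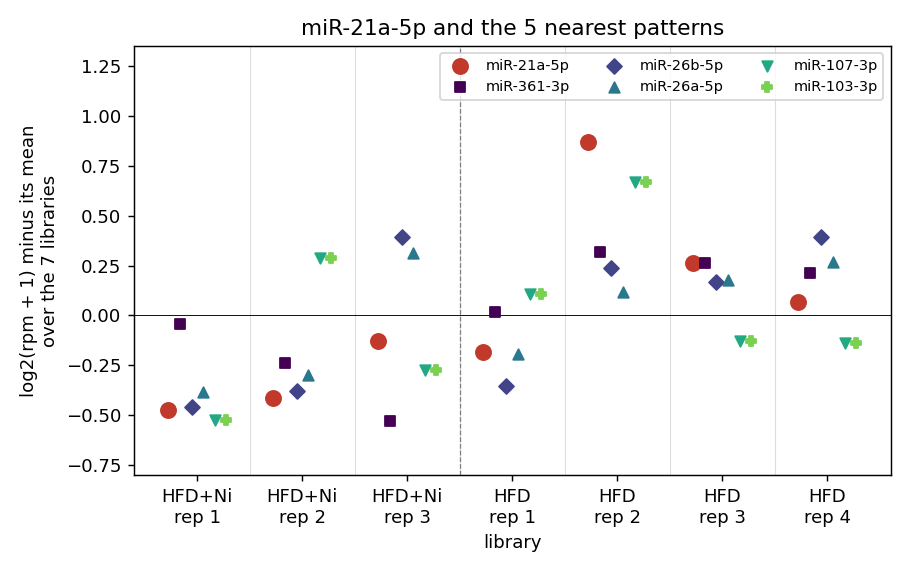
log2(rpm + 1) minus its mean over the 7 libraries (vertical axis) for miR-21a-5p (red circles) and the 5 nearest miRNAs, by library (horizontal axis). In HFD replicate 2 miR-21a-5p stands highest of the 6, with miR-103-3p and miR-107-3p next.

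miR-21 is read in tissue together with other miRNAs of inflammation and of scarring. Of 10 inflammation partners all were in the table and 8 were tested; 6 of the 8 were lower in HFD+Ni and 2 higher, and their log2 fold changes had a median of -0.45. Leaving out HFD+Ni replicate 1 moved the median to -0.81 and leaving out HFD+Ni replicate 2 moved it to -0.20, with 7 lower and 1 higher in each case. Over all 387 tested miRNAs 47.3% were lower and the median was 0.04. None of the 8 passed at adjusted p under 0.05, where 0% of all tested miRNAs passed. The most abundant was miR-125b-5p, which acts in macrophages and many other cells, at 38945 ± 9179 rpm in HFD+Ni (SD, n = 3) and 43795 ± 10450 rpm in HFD (SD, n = 4). miR-146a-5p, a brake on NF-kB signalling, was at 1412 ± 229 rpm in HFD+Ni and 2474 ± 983 rpm in HFD, with a log2 fold change of -0.74 (SE 0.35). miR-9-5p, of neurons and activated myeloid cells, was at 2176 ± 2747 rpm in HFD+Ni and 1045 ± 1075 rpm in HFD. Its log2 fold change was 0.24 (SE 1.38). At unadjusted limma p under 0.05 there was 1 of the 8 partners, miR-223-3p, against 2.84% of all tested miRNAs. Named after its value was seen, this miRNA of neutrophils and other myeloid cells was at 385 ± 83.3 rpm in HFD+Ni and 781 ± 108 rpm in HFD (log2 fold change -1.03, SE 0.39, limma adjusted p = 0.830).

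Among 12 fibrosis partners 10 were in the table and tested; 3 were lower in HFD+Ni and 7 higher, and their log2 fold changes had a median of 0.10, while edgeR on the reads gave 7 lower and 3 higher with a median of -0.06. Counting each of the pairs miR-29a-3p with miR-29c-3p and miR-199a-5p with miR-199b-5p once left 8, of which 3 were lower and 5 higher. Leaving out HFD+Ni replicate 1 moved the median of the 10 to 0.02, while it was 0.03, 0.16 and -0.02 when HFD replicate 1, 2 or 4 was left out, so its sign was not stable. None was at unadjusted limma p under 0.05. miR-29c-3p and miR-29a-3p, which hold down collagen messages, differed in reads by at most 0.918% in any library and may rest on the same reads, and miR-29c-3p was at 32984 ± 1344 rpm in HFD+Ni (SD, n = 3) and 32033 ± 3770 rpm in HFD (SD, n = 4). miR-30c-5p, which targets connective tissue growth factor, was at 2915 ± 1726 rpm in HFD+Ni and 4217 ± 1961 rpm in HFD. miR-199a-5p and miR-199b-5p had equal reads in all libraries and count as 1 observation. The log2 fold change of miR-21a-5p lay below that of 9 of the 10 fibrosis partners, or 7 of 8 with the pairs counted once, and of 4 of the 8 inflammation partners. Among all tested miRNAs 24.8% lay below miR-21a-5p, so it was lower than most of them in any case. Whether either list departs from that share was not tested.

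**Figure D5:**
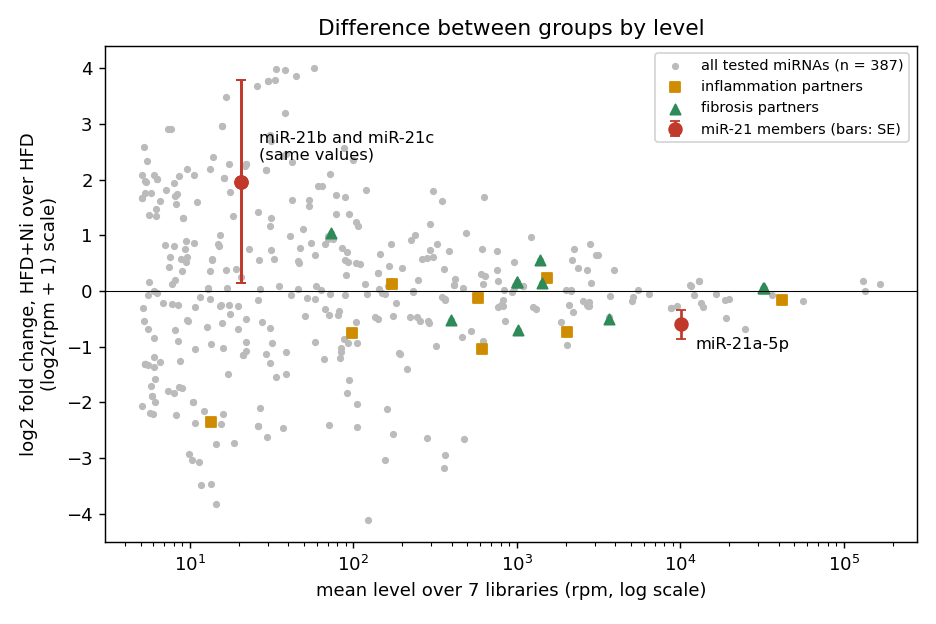
The log2 fold change, HFD+Ni over HFD (vertical axis), against the mean level over 7 libraries in rpm (horizontal axis, log scale), for the 387 tested miRNAs in grey, inflammation partners as orange squares, fibrosis partners as green triangles and the miR-21 members in red with SE bars. miR-21a-5p lies at -0.59 and 10073 rpm, and miR-21b and miR-21c at 1.96 with an SE of 1.82.

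miRNAs that mark particular cell types also differed in level between the libraries, and their part in the miR-21a-5p result was not tested. These lists are not separate from the partner lists. The leukocyte miRNA miR-223-3p is also an inflammation partner, and the striated muscle miRNA miR-133a-3p also a fibrosis partner. The endothelial pair, miR-126a-3p and miR-126a-5p, was read in every library and summed to 12979 to 18852 rpm in HFD+Ni and 20518 to 32381 rpm in HFD, highest in HFD replicate 4. These sums did not overlap, while each of the pair overlapped between groups when taken alone, and 2.33% of single tested miRNAs lay wholly lower in HFD+Ni. The 5 leukocyte miRNAs summed to 2350 to 4679 rpm in HFD+Ni and 4613 to 5865 rpm in HFD. Among the HFD libraries their sum was lowest in replicate 2 and highest in replicate 1, and miR-142a-3p was at 0 in at least 1 library. The smooth muscle pair summed to 15198 to 32649 rpm in HFD+Ni and 18103 to 59959 rpm in HFD, highest in HFD replicate 2. The 4 striated muscle miRNAs summed to 762 to 1156 rpm in HFD+Ni and 866 to 4300 rpm in HFD. HFD replicates 2 and 4 were both high, at 4300 and 4025 rpm, and miR-206-3p was at 0 in some libraries. The 6 epithelial miRNAs summed to 6311 to 45146 rpm in HFD+Ni, the highest value being that of replicate 1, and 4813 to 13605 rpm in HFD, highest in HFD replicate 3. The 7 testis and sperm miRNAs summed to 1200 to 2332 rpm in HFD+Ni and 599 to 1077 rpm in HFD, also without overlap. All 7 had a higher log2 fold change in HFD+Ni, but some of them overlapped between groups when taken alone. Of single tested miRNAs 5.17% had no overlap in either direction. In at least 1 library 5 of the 7 were at 0. Other lists were as uniform in direction. All 6 epithelial miRNAs were higher in HFD+Ni, but without HFD+Ni replicate 1 there were 5 lower and 1 higher. All 5 leukocyte and all 4 striated muscle miRNAs were lower, as were both of the endothelial and of the smooth muscle pair. Of the 3 red cell and platelet miRNAs of the list, 2 were in the table, miR-451a and miR-144-3p, and summed to 0 to 149 rpm in HFD+Ni and 8.51 to 111 rpm in HFD. miR-486b-5p, which is also abundant in red cells and was looked up after the values were seen, was at 0, 335 and 864 rpm in HFD+Ni and at 272, 1159, 187 and 519 rpm in HFD, again highest in HFD replicate 2. No list for fat cells was set, so the tissue label was not checked against markers of its own.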

How the data were processed

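Vesicle small RNA of 7 libraries was sequenced, and the deposited table gives 820 miRNAs. Its name says TPM, but the deposited values are rpm: each column sums to 1000000 and is whole multiples of 1 step, which returned whole reads for 100% of the values within 0.1 read. The submitters' processing notes name build GRCm38 (mm10) and the tool edgeR. For the aligner, the counter and the miRNA annotation nothing is stated in the sources used here. The authors' deposited log2 fold changes and p-values are quoted as theirs. A second deposited list of changed miRNAs holds no miR-21 and was not used.

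Libraries held 53626 to 1055902 miRNA reads (18.6 to 0.947 rpm per read). limma 3.58.1 (R 4.3.3) was run on log2(rpm + 1) with a mean-variance trend, over miRNAs that averaged 5 rpm or more, two-sided, with Benjamini-Hochberg adjustment at 0.05. edgeR 4.0.16 and DESeq2 1.42.0 on the recovered reads, other scalings, pseudocounts, filters, thinning, library weights, a replicate block and left-out libraries were alternatives. Shares carry Wilson and levels Poisson intervals at 95%. The code was tested on simulated data. Named were the members, the opposite arm, miRNAs with a member's seed, 2 neighbours above and 2 below by mean level, the 5 nearest patterns, and up to 3 abundant miRNAs of each partner list. The members, lists and tests were chosen with earlier results of these data known.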

Additional observations from a re-analysis of the deposited data

Results flagged for a closer look

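In the 4 HFD libraries, the gap between the highest or lowest value and the next was set against the whole range, and 3 of the 23 quantities checked passed the 95% critical value of Dixon's test, which chance passes in about 1 of 20. All 3 concern HFD replicate 2, the deepest library, so they are not separate observations to be set against that share. Its total of 1055902 miRNA reads lay far above 80817, 117459 and 77021 in HFD replicates 1, 3 and 4, with a gap of 0.959 of the range. It detected 710 miRNAs against 273 to 342 in the other HFD libraries, with a gap of 0.842. miR-21a-3p was read in this library at 6.63 rpm and had no read in the other HFD libraries, so the gap is the whole range (1.00). It would be so at any level in HFD replicate 2. At the depth of those libraries 1 read is 8.51 rpm or more, so a level of 6.63 rpm would be under 1 read there. miR-21a-5p itself, at 17527 rpm in HFD replicate 2, did not pass the critical value.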

How the results depend on the processing

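miR-21a-5p was lower in HFD+Ni and not significant after adjustment in all 19 alternatives, 7 of which left out 1 library. Its log2 fold change lay between -0.74 and -0.39 (limma adjusted p 0.770 to 0.918) with 1 library left out, and between -0.76 with edgeR and -0.32 without the deepest and the shallowest library in the other 12 (adjusted p 0.616 to 0.876). The log2 ratio of group means of the 3 members summed was -0.63, and lay between -0.77 and -0.38 with 1 library left out. For miR-21b and miR-21c the log2 fold change lay between 1.13 and 2.88 with 1 library left out. It was 0.31 with edgeR, 0.59 with DESeq2, 0.72 with library weights and 1.00 with a pseudocount of 5, and was reversed when every library was thinned to 53626 reads, at -0.20 for miR-21b and -0.83 for miR-21c, each drawn separately; at that depth the values rest on a few reads. A filter at a mean of 50 rpm leaves both out. The partner lists were recomputed with libraries left out and under other scalings after the data had been seen. Of all miRNAs tested, limma called 0 (11 at unadjusted p under 0.05), as did every limma fit with 1 library left out (0); edgeR called 0 (28) and DESeq2 called 1 (19), which is not a miR-21 member.

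The titles number the libraries in both groups, but same-numbered libraries deviated from their group means with correlations of 0.02, 0.19 and -0.10, and 1 of the 3 HFD+Ni libraries correlated best with its own number. With the number as a replicate block, the log2 fold change of miR-21a-5p was -0.66 (limma adjusted p = 0.809), that of miR-21b and miR-21c 1.13, and 0 miRNAs were called. miR-21a-3p and the ratio of the arms gave no value under any setting, since 6 of 7 libraries hold no read of that arm.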
